A study of Mus musculus with 9 samples.

Results

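The major urinary protein (Mup) genes of mouse liver were examined in an RNA immunoprecipitation experiment for HuR, an RNA-binding protein encoded by Elavl1. The set holds 10 genes, taken by name from the 33732 gene names of the deposited exon table: Mup1, Mup2, Mup3, Mup7, Mup9, Mup10, Mup11, Mup17, Mup18 and Mup20. All 10 passed the filter on low values (RPKM of 0.5 or more in 3 of the 6 pull-down libraries), as did 5510 genes in all. The table holds 33 further Mup names, of which 11 are protein-coding genes and 22 are pseudogenes. The study asked which liver RNAs HuR binds. Its 3 groups were pull-downs with an antibody against HuR (n = 3), pull-downs with IgG as the control antibody (n = 3) and Input, the RNA of the lysate (n = 3). All 9 samples were whole livers of C57BL/6 wild-type mice that were healthy and 8 weeks old, with no other treatment named. All groups share this background. Each pull-down used the lysate of 1 liver under native conditions, that is without crosslinking, and libraries were made from total RNA with a kit for Ion sequencers. Whether an HuR and an IgG pull-down came from the same liver is not given, so p-values measure the spread between these libraries. Input has 1 column in the table, the authors' mean of its libraries, and carries no replicate error here.

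Major urinary proteins are small secreted lipocalins. The liver releases them into the blood, the kidney passes them into urine, and their barrel-shaped fold holds volatile pheromones that are released slowly from scent marks. Mup20 encodes darcin, itself a pheromone by which females recognise and learn the scent of a male. Liver Mup transcripts are higher in male than in female mice, under the pulsed growth hormone secretion of males that acts through Stat5b. HuR binds U-rich and AU-rich stretches, mostly in 3′ untranslated regions, and is known for stabilising the transcripts that it holds.

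All 10 genes lie on the minus strand of chromosome 4 (GRCm38, the mm10 build), between Mup7 at its low end (chr4:60066469-60070475) and Mup3 at its high end (chr4:62083476-62087342). In the GENCODE M21 annotation each transcript examined has 7 exons and 543 to 555 coding bases. The last exon holds 0 coding bases in each of the 10, so it is 3′ untranslated sequence throughout. It is 253 bases long in 9 genes and 249 bases in Mup3. The last exons are near copies of each other: the 45 pairs had a median identity of 97.2%, with Mup2 and Mup10 identical at every base. Mup3 and Mup20 stood apart, with medians of 83.8% and 89.1% to the other members. Among the remaining 8 genes, 14 of 255 aligned positions of the last exon varied. The 30 bases richest in variable positions (6 of the 14 lie in them; bases 183 to 212 of the last exon, 182 to 211 in Mup3) are shown to let the copies be compared. Capitals mark bases that differ from Mup10, at chr4:60578301-60578330 on the minus strand, and the sense sequences were read from GENCODE transcripts.
Mup10: atatacccatgacaatttttcatgaatttc
Mup1: atatacccatgacaatttttcatgaatttc
Mup2: atatacccatgacaatttttcatgaatttc
Mup9: atatacccatgacaatttttcatgaatttc
Mup7: ataCacccatgaAaatttttcatgaatttc
Mup18: ataCacAcatgacaatttttcatgaatttc
Mup11: ataCacccTtgacaatttttcatgaaAttc
Mup17: ataCacccTtgacaatttttcatgaaAttA
Mup20: aCatacccatgacaattCtCcatgaatttc
Mup3: GCCAacAcatgGAaattCtCcatTGatttc

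Mup1, Mup2, Mup9 and Mup10 share the whole 30-base window, and the run of 5 T bases in it is broken in Mup20 and Mup3 only. Reads that fall in such stretches cannot be assigned to a copy. Of the 50-base windows of the last exon, 100% in Mup1, Mup2, Mup7 and Mup10 also occur in transcripts of other genes. The share is 8.00% in Mup3 and 1.96% in Mup20, so reads of that length in these last exons are mostly their own. The sources used here do not say how reads with several equal placements were counted. In the identical last exons of Mup2 and Mup10 the RPKM ratio lay between 0.978 and 1.10 in every library and in Input. In Mup1 and Mup10, whose windows are also all shared, the same ratio lay between 0.634 in HuR 2 and 1.56 in IgG 3. The share of such windows was 52.5% in Mup11 and 49.0% in Mup17. In the exons before the last, the share of 50-base windows found in other genes was 67.4% in Mup20 and 19.0% in Mup3. In the other members it ran there from 80.6% in Mup10 to 100%. The last exon and the exons before it thus differ in how much is shared. Members that share these windows are not independent observations.

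The library labelled HuR 2 stood apart from the other HuR libraries in genes other than Mup. Of 15 genes known as male-biased in mouse liver, all 15 were lowest among the HuR libraries in HuR 2. Of 16 female-biased genes with reads, 15 had their highest value of all 6 pull-downs in it. Summed RPKM of the male-biased list was 214, 21.8 and 229 in HuR 1 to 3, and 163, 45.9 and 32.5 in IgG 1 to 3. The female-biased list summed to 1.97, 130 and 11.8 in the HuR libraries, against 3.35, 2.34 and 18.0 in the IgG libraries. Xist, the RNA that coats the inactive X chromosome of females, had 10.2 RPKM in HuR 2, against at most 0.46 in each other pull-down. The Y-linked Ddx3y had 0.43, 0.02 and 2.04 RPKM in the HuR libraries, against 0.33, 0.06 and 0 in the IgG libraries. The labels name no sex. The table's column names end in 1M, 2M and 3F for the libraries numbered 1, 2 and 3 of each pull-down, with no key. Among the IgG libraries, IgG 3 had the highest female-biased sum, the lowest male-biased sum and all listed Y-linked genes at 0. IgG 3 also had the fewest exons above 0 of the pull-downs. Whether the columns of HuR 2 and HuR 3 were exchanged was not tested, and the Mup results are given with and without HuR 2. Fits without HuR 2 keep IgG 3, so antibody and this pattern are partly mixed in them. Its part in the Mup calls was not tested. Because whole tissue was used, fewer cells of a type and less RNA per cell cannot be told apart.

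**Figure D1:**
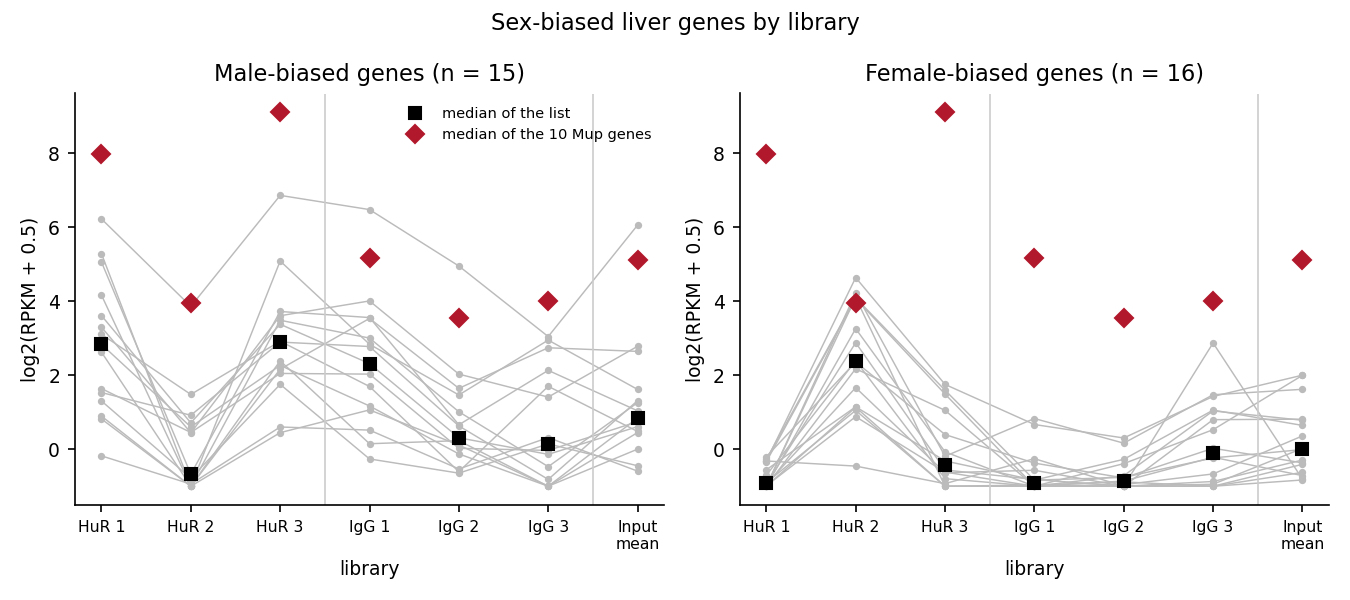
Values of sex-biased liver genes in each pull-down library and the Input mean, as log2(RPKM + 0.5); grey lines are single genes, black squares the list's median and red diamonds the median of the 10 Mup genes. In the HuR 2 column the male-biased genes and the Mup genes are low among the HuR libraries and the female-biased genes are high.

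Depth, worked out from the RPKM steps of single reads, was 26.3 to 26.9 M reads in the HuR libraries, against 15.9 to 28.8 M reads in the IgG libraries, lowest in IgG 1. Hepatocyte markers were present at summed RPKM of 973 to 998 in the HuR libraries, 286 to 738 in the IgG libraries and 748 in Input, with none at 0. Markers of lacrimal and salivary gland, other sites of Mup expression, summed to 1.28 to 3.26 RPKM in the HuR libraries, 0.18 to 1.06 in the IgG libraries and 0.70 in Input. Only 2 of the 4 markers listed for these glands are in the table, and Smr3a was at 0 in every HuR library. Kupffer cell markers summed to 4.83 to 11.9 RPKM in the HuR libraries, against 2.71 to 8.47 in the IgG libraries, and erythroid markers to 64.2 to 171 and 98.7 to 233. Endothelial, stellate, bile duct and lymphocyte markers summed to at most 13.1 RPKM in any library. The part of other cells in the Mup values was not tested. A member's total lay between 204 reads (Mup3 in IgG 3) and 48506 reads (Mup7 in HuR 3). Reads are not independent molecules, so read numbers limit counting error only.

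Over whole genes, Mup RNA was far above IgG in HuR 1 and HuR 3 and at IgG level in HuR 2. Mup7, the highest member in every pull-down and in Input, had 1026, 38.4 and 1745 RPKM in HuR 1 to 3. In IgG 1, 2 and 3 Mup7 had 124, 36.6 and 33.0 RPKM, and in Input 91.5. Mup2 had 459.6, 31.4 and 809 RPKM in the HuR libraries, against 36.3, 14.5 and 17.5 in the IgG libraries. Mup20, the darcin gene, had 104, 8.80 and 193 RPKM in the HuR libraries, against 37.4, 13.5 and 9.20 in the IgG libraries. In all 3 genes HuR 2 fell within or below the IgG values while HuR 1 and HuR 3 lay above them.

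The other members ran in the same way. Mup1 had 247, 13.3 and 484 RPKM in the HuR libraries, against 20.7, 8.62 and 17.1 in the IgG libraries. Mup10, whose last exon equals that of Mup2, had 358, 30.4 and 625 RPKM in the HuR libraries, against 35.2, 10.8 and 14.2 in the IgG libraries. Mup3, the most divergent copy, had 236, 27.0 and 393 RPKM in the HuR libraries, against 56.9, 11.7 and 6.63 in the IgG libraries. HuR 2 lay between the IgG values in these 3 genes. Mup11 had 309, 11.6 and 732 RPKM in the HuR libraries, against 35.7, 10.8 and 17.2 in the IgG libraries. Mup17 had 258, 11.4 and 826 RPKM in the HuR libraries, against 27.0, 10.8 and 23.4 in the IgG libraries. Mup18 had 182, 16.9 and 325 RPKM in the HuR libraries, against 33.0, 14.0 and 10.03 in the IgG libraries. In Mup17 HuR 3 was far above HuR 1, where in Mup2 and Mup10 they were closer. Mup9, the lowest member in Input, had 79.5, 6.39 and 212 RPKM in the HuR libraries, against 14.6, 7.21 and 5.56 in the IgG libraries.

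In every member HuR 1 and HuR 3 stood above IgG. HuR 1 and HuR 3 exceeded all IgG libraries in 10 of 10 members, as they did in 38.5% of the 5510 genes tested. The lower of HuR 1 and HuR 3 was 2.77 times the highest IgG library in Mup20 and up to 12.7 times in Mup2. With HuR 2 included, the groups overlapped in all 10 members, so 0 of 10 had every HuR library above every IgG library, against 31.3% of the genes tested. Mup10 averaged 338 ± 298 RPKM in the HuR pull-downs, against 20.1 ± 13.2 RPKM in the IgG pull-downs (SD, n = 3 each). The SD over the HuR libraries was close to their mean in every member, and above it in Mup9, Mup11 and Mup17.

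The fit across all genes (limma on log2(RPKM + 0.5), 2-sided, Benjamini-Hochberg adjustment over 5510 genes, threshold 0.05) called 0 of 10 members. It called 0.672% of the genes tested as higher in HuR and 0.127% as lower (37 and 7 genes). With the libraries centred at their medians these were 1 and 18 genes, and with TMM-like scaling 50 and 342, with 0 members among them. All 10 fold changes were above 0, with a median log2 fold change of 2.90 for HuR over IgG, against 0.92 over all genes tested. The largest were Mup2 at 3.41 (SE 1.19) and Mup10 at 3.40 (SE 1.17), with limma adjusted p of 0.0870 and 0.0837. The smallest was Mup20 at 1.73 (SE 1.15), with a limma adjusted p of 0.287. Before adjustment, 9 of 10 had p under 0.05, beside 27.9% of all genes tested that were higher in HuR at that p. With the libraries centred at their medians, with TMM-like scaling or without HuR 3, 0 of 10 did. Without HuR 2 the same limma fit called 6 of 10 members (Mup1, Mup2, Mup7, Mup10, Mup11 and Mup17), beside 1.63% of all genes, and the median log2 fold change of the 10 was 4.54. With sample quality weights it called 10 of 10, beside 41.7% of all genes. All Mup names pooled into 1 feature gave a log2 fold change of 2.84 (SE 1.17, limma adjusted p = 0.115).

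**Figure D2:**
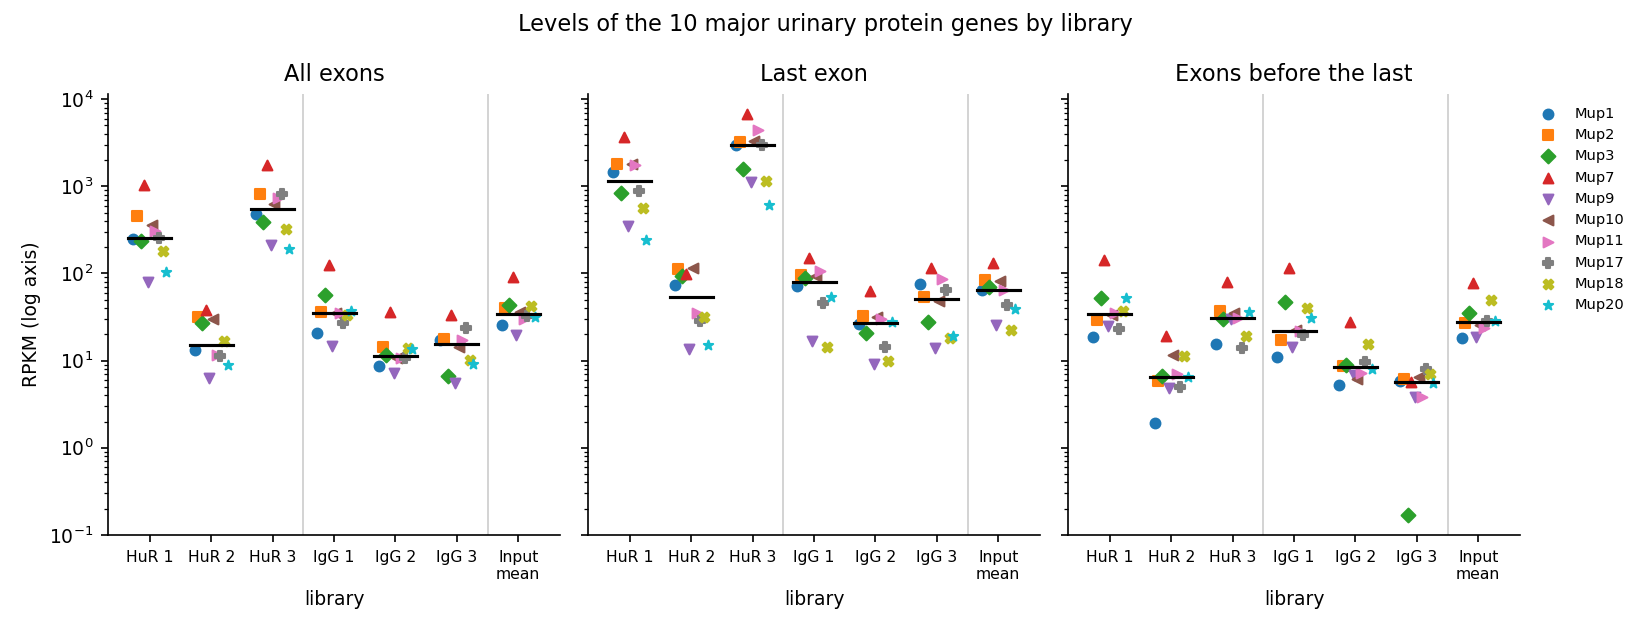
RPKM of the 10 genes in each library on a log axis, for all exons, the last exon and the exons before it; symbols are genes and black bars their medians. The median over all exons was 252, 15.1 and 555 RPKM in HuR 1 to 3, 35.4, 11.3 and 15.6 in IgG 1 to 3, and 34.2 in Input. The rise in HuR 1 and HuR 3 sits mostly in the last exon.

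The excess in HuR 1 and HuR 3 lay mostly in the last exon, which is 3′ untranslated. In some members part of it lay earlier. Exon 6 of Mup2 had 80.6 and 116 RPKM in HuR 1 and HuR 3, against 7.52 in Input. Mup10's last exon had 1819.7, 115 and 3278 RPKM in HuR 1 to 3, against 93.7, 31.3 and 48.9 in IgG 1 to 3 and 82.5 in Input. Its exons before the last had 33.2, 11.6 and 35 RPKM in the HuR libraries, against 22.2, 6.23 and 6.46 in the IgG libraries and 25.6 in Input. In Mup10 HuR 1 and HuR 3 were thus far above Input in the last exon and close to it in the pooled value of the earlier exons. That pooled value mixes exons above and below Input. Exon 6 of Mup10 had 114 and 159 RPKM in HuR 1 and HuR 3, against 12.2 in Input. Its exon 4 had 11.2 and 9.04 RPKM in HuR 1 and HuR 3, against 68.3 in Input. Mup7's last exon reached 3732, 97.5 and 6851 RPKM in the HuR libraries, against 152, 62.6 and 117 in the IgG libraries. Mup18's had 569, 31.4 and 1144 RPKM in the HuR libraries, against 14.5, 9.79 and 18.0 in the IgG libraries, with no overlap between the groups.

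The last exon of Mup1 had 1447, 73.0 and 2951 RPKM in the HuR libraries, against 71.0, 26.5 and 76.4 in the IgG libraries, so that HuR 2 lay just below IgG 3. That of Mup11 had 1741, 35.3 and 4396 RPKM in the HuR libraries, against 108, 29.95 and 87.3 in the IgG libraries. That of Mup17 had 882, 28.5 and 2991 RPKM in the HuR libraries, against 45.9, 14.2 and 64.2 in the IgG libraries. In both of these HuR 2 was below IgG 1 and IgG 3. Mup9's last exon, low in Input at 25.6 RPKM, had 348, 13.7 and 1108 RPKM in the HuR libraries, against 16.9, 9.04 and 14.0 in the IgG libraries. Its HuR 2 value fell between those of IgG 2 and IgG 3.

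Mup3 and Mup20, whose last exons share few 50-base windows with other genes, also had high last exons in HuR 1 and HuR 3. Mup3's last exon had 830.4, 93.1 and 1569 RPKM in the HuR libraries, against 87.8, 21 and 27.5 in the IgG libraries and 69.7 in Input. All 3 HuR values were above all 3 IgG values. Mup20's had 242, 15.0 and 613 RPKM in the HuR libraries, against 54.3, 28.0 and 19.1 in the IgG libraries and 39.6 in Input, with HuR 2 the lowest of the 6. In reads, Mup20's last exon held 1628, 100 and 4172 in the HuR libraries, against 218, 189 and 139 in the IgG libraries. The high last exon of HuR 1 and HuR 3 was thus present in these copies too. The read length is not given, and whether reads of other copies were placed there was not tested.

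Fitted alone, the last exon gave a median log2 fold change of 3.71 for HuR over IgG, against 1.28 over 5454 genes. The limma fit called 1 of 10 members, Mup18 (4.28, SE 1.25, adjusted p = 0.0496), and 6.38% of all last exons as higher in HuR. The other 9 had limma adjusted p between 0.0540 (Mup10) and 0.230 (Mup20), and the call of Mup18 was lost with a pseudocount of 0.1 or 1 and with the libraries centred at their medians. In 4 of 10 members (Mup2, Mup3, Mup10 and Mup18) all HuR libraries lay above all IgG libraries, against 36.2% of all last exons. HuR 1 and HuR 3 did so in 10 of 10, against 46.3% of all last exons, by 4.45 times or more. Without HuR 2, limma called 9 of 10 last exons, all but Mup20 (adjusted p = 0.0635), beside 9.53% of all genes. With sample quality weights it called 10 of 10, beside 55.2% of all genes. It called 0 of 10 without HuR 1, HuR 3, IgG 2 or IgG 3, and 2 without IgG 1, beside 23.3% of all last exons.

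The exons before the last gave a median log2 fold change of 1.04, against 0.47 over 2155 genes. Limma called 0 of 10 there, beside 0.325% of all genes, and 0 of 10 had p under 0.05 before adjustment, where 9.1% of all genes were higher in HuR at that p. HuR 1 and HuR 3 exceeded all IgG libraries in 6 of 10, against 17.3% of all genes, and in 0 of 10 did HuR 2 exceed them as well, against 14.2%. The lowest were Mup17 at 0.03 (SE 0.95) and Mup18 and Mup1 at 0.28, and these 3 were below 0 with the libraries centred at their medians. The highest was Mup3 at 1.75 (SE 0.95, limma adjusted p = 0.451).

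**Figure D3:**
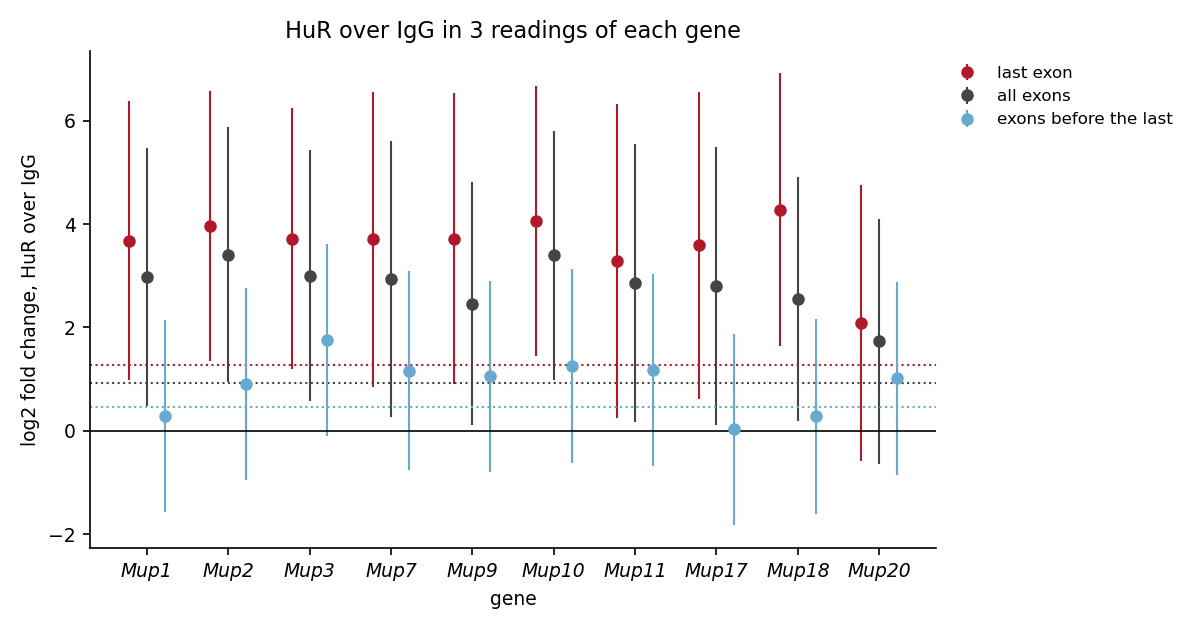
Log2 fold change of HuR over IgG for each gene, fitted on the last exon (red), all exons (black) and the exons before the last (blue), with 95% intervals from limma; dotted lines are the medians over all genes tested for each reading. The last exon is the highest reading and the exons before it the lowest in all 10 genes, and the intervals are wide.

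Along the gene, the HuR libraries were below Input at exon 1 and at exons 3 to 5 at the median. HuR 1 and HuR 3 were above it at exons 6 and 7, although in Mup18 both were below it at exon 6. At exon 2 the medians were 39.5, 15.6 and 32.4 RPKM in HuR 1 to 3, against 33.0 in Input. These medians are over the 9 members whose entries form 7 separate blocks, leaving out Mup9, whose entries form 6. Exon here means such a block of merged overlapping entries, which can be longer than the transcript's exon. Exon 6 ran from 46 bases in Mup17, Mup18 and Mup20 to 703 bases in Mup1. Its Input RPKM ran from 1.65 in Mup1 to 39.6 in Mup18, so its medians mix unlike stretches. At exon 4 the median RPKM was 10.2, 2.39 and 9.04 in HuR 1 to 3, against 30.7, 13.5 and 3.13 in IgG 1 to 3 and 62.9 in Input. At exon 6 it was 37.6, 3.47 and 45.8 in the HuR libraries, against 14.7, 4.08 and 2.79 in the IgG libraries and 7.98 in Input. At exon 7 it was 1447, 73.0 and 2991 in the HuR libraries, against 87.8, 28.0 and 53.6 in the IgG libraries and 65.4 in Input. In Mup20 alone, exon 5 had 0.74, 0.37 and 1.46 RPKM in the HuR libraries, against 16.7, 0 and 0.34 in the IgG libraries and 18.6 in Input. Its exon 2 had 115, 0.85 and 74.9 RPKM in the HuR libraries, against 29.2, 16.5 and 26.7 in IgG and 30.3 in Input. In single-exon fits limma called 0 of 110 member exons, as it called 0.0% of the 15298 exons tested, while 3208 of those had p under 0.05 before adjustment, and 17.6% of all exons tested were higher in HuR at that p. The 15 last-exon entries of the members were all above 0, with a median log2 fold change of 3.70 and 10 of 15 at p under 0.05 before adjustment. The other 95 entries had a median of 0.49, with 5 at that p, and all exons tested had 0.84.

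**Figure D4:**
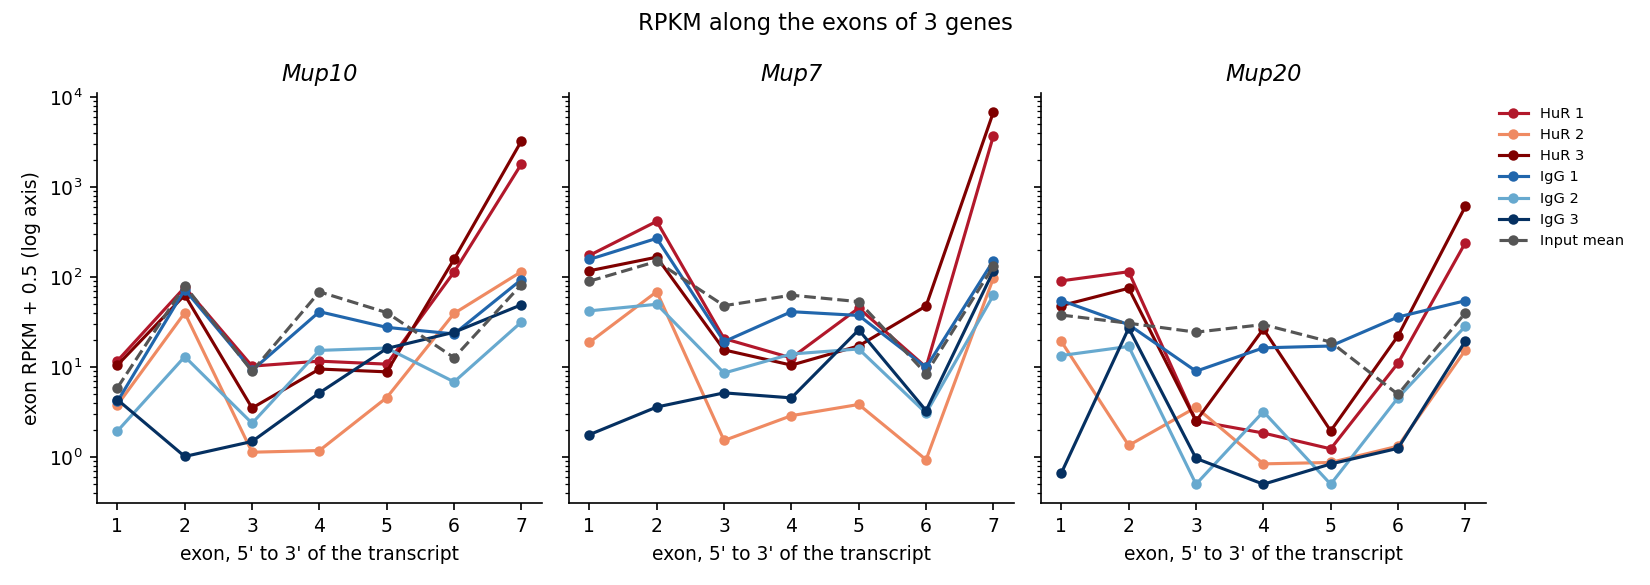
RPKM + 0.5 on a log axis along the 7 exons of Mup10, Mup7 and Mup20, from the 5′ to the 3′ end of the transcript. Each exon is a block of merged entries, with 1 line per library and a dashed line for the Input mean. In HuR 1 and HuR 3 exon 7 is far above every other library, while exons 3 to 5 lie at or below Input in nearly all cases.

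The share of a gene's reads in its last exon describes this shape without regard to level. It had a median over the 10 members of 90.0%, 65.3% and 96.1% in HuR 1 to 3, against 43.0%, 43.5% and 72.5% in IgG 1 to 3 and 35.9% in Input. The last exon makes up 23.8% of the members' merged exon length at the median. HuR 2, low in level, was thus above IgG 1 and IgG 2 in this share but below IgG 3. Many other genes showed the same shape. Over the 3739 genes tested with 3 or more exons the medians were 86.3%, 68.1% and 86.7% in the HuR libraries, 51.4%, 41.4% and 25% in the IgG libraries and 42.0% in Input.

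Taken as log2 of the last exon over the exons before it, the members' difference between HuR and IgG had a median of 2.73, against 1.30 over all 3739 genes. Limma called 0 of 10 members and 5.24% of all genes as higher in HuR, and 6 of 10 members had p under 0.05 before adjustment, beside 29.5% of all genes that were higher in HuR at that p. With the libraries centred at their medians 2 of 10 did, and without HuR 1, HuR 3 or IgG 1 it was 3 of 10. In 4 of 10 members (Mup1, Mup2, Mup10 and Mup18) all HuR libraries lay above all IgG libraries, against 32.5% of all genes. The largest was Mup18 at 4.0 (SE 1.18, limma adjusted p = 0.0664) and the smallest Mup20 at 1.06 (SE 0.92, limma adjusted p = 0.456). In Mup18 the ratio was 3.93, 1.42 and 5.87 on the log2 scale in HuR 1 to 3, against -1.43, -0.64 and 1.29 in IgG 1 to 3, with no overlap. In Mup3 it was 3.98, 3.72 and 5.69 in the HuR libraries, against 0.88, 1.20 and 5.39 in the IgG libraries. IgG 3 held 4 reads of Mup3 outside the last exon, so that its ratio there is poorly determined. Without HuR 2 limma called 6 of 10 members, beside 13% of all genes.

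**Figure D5:**
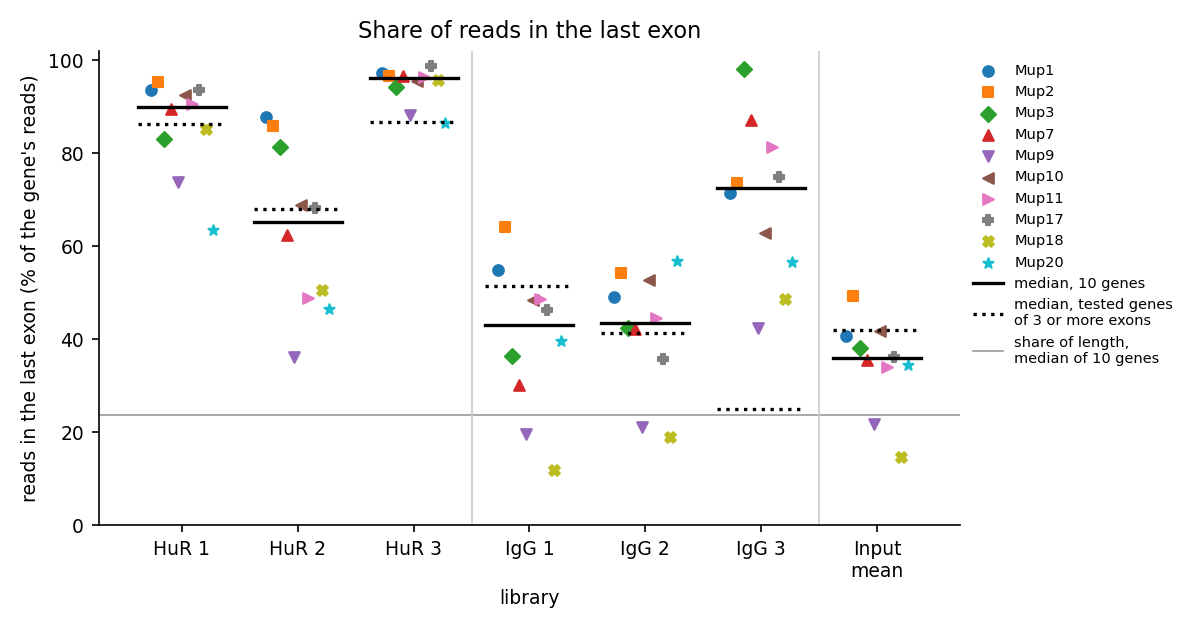
Percent of each gene's reads that fall in its last exon, by library; symbols are genes, solid bars the median of the 10, dotted bars the median of all tested genes with 3 or more exons, and the grey line the last exon's share of length. The members lie between 63.5% and 98.8% in HuR 1 and HuR 3, and between 14.7% and 49.2% in Input.

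Letters known from U-rich and AU-rich binding sites were looked for in the last exons. Searches ran on the sense strand, where an RNA-binding protein meets the letters, and matches could overlap. The run TTTTTTT occurs in 0 of the 10 last exons, against 12.0% of 21780 protein-coding genes in their last 250 bases. The letters TTTATTT occur in 0 of 10, against 12.4%. The AU-rich core ATTTA occurs in 0 of 10, against 36.8%. Its longer form TATTTAT, which contains the core, occurs in 0 of 10, against 7.88%. The longest T run was 5 bases in 8 members, 4 in Mup3 and 3 in Mup20. T made up 32.1% to 34.0% of the last exon in the members, against a median of 30% over those protein-coding genes with quartiles of 25.6% and 34.8%. A match or its absence in these letters says nothing of where HuR sat.

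Against Input, the pull-downs split in the same way. HuR 1 and HuR 3 were above the Input mean in 10 of 10 members over whole genes and HuR 2 in 0 of 10, so that 0 of 10 were above Input in all 3 HuR libraries, against 68.9% of the genes tested. The members' median log2 ratio to Input was 3.11, -1.26 and 4.16 in HuR 1 to 3, where all tested genes had medians of 1.38, 1.31 and 1.08. In the last exon, HuR 2 was above Input in 5 of 10 members (Mup1, Mup2, Mup3, Mup10 and Mup18), which were then above it in all 3 HuR libraries, against 69.1% of all last exons. In the exons before the last, HuR 2 was below Input in all 10 members, and the members' median log2 ratio to Input there was 0.40, -2.05 and 0.19 in HuR 1 to 3. Mup17 and Mup18 were below Input in all 3 HuR libraries in those exons, 2 of 10 against 9.74% of the genes tested. With Input as a mean, these ratios have no test.

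IgG pull-downs held less Mup RNA than Input in most cases. Over whole genes, 0 of 10 members were above Input in all 3 IgG libraries, against 20.7% of the genes tested. The members' median log2 ratio to Input was -0.10, -1.49 and -1.38 in IgG 1 to 3, and over all tested genes it was 0.91, -0.08 and -0.18. IgG 1 was above Input in 4 of 10 members (Mup3, Mup7, Mup11 and Mup20), and IgG 2 and IgG 3 in 0 of 10.

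Among the members, Mup7 was highest and Mup9 lowest in Input (91.5 and 19.8 RPKM) and in each IgG library. The spread from lowest to highest member was 12.9-fold in HuR 1, 6.01-fold in HuR 2 and 9.03-fold in HuR 3, against 5.07-fold to 8.47-fold in the IgG libraries and 4.63-fold in Input. Mup17 ranked behind Mup7 alone in HuR 3 with 826 RPKM, and ranked lower in HuR 1 with 258 RPKM. Within the HuR and within the IgG pull-downs, the range over libraries of each member overlapped that of its neighbours in rank.

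The reads of all 43 Mup names were set against the reads of protein-coding genes, a base that leaves the Mup pseudogenes out. Pseudogenes alone came to 0.263%, 0.0930% and 0.249% in HuR 1 to 3, against 0.166%, 0.126% and 0.109% in IgG 1 to 3. Together the 43 names came to 7.35%, 0.565% and 15.8% in HuR 1 to 3, against 1.0%, 0.601% and 0.892% in IgG 1 to 3. In Input these were 0.267% for the pseudogenes and 1.48% for all names. Of the 4 others highest over the pull-downs, Mup15 had 1042, 28.6 and 1913 RPKM in the HuR libraries, against 64.0, 24.7 and 42.0 in the IgG libraries. The pseudogene Mup-ps22, by contrast, had 855.3, 231 and 792 RPKM in the HuR libraries, 563, 274 and 177 in the IgG libraries and 633 in Input, so that HuR 2 fell among the IgG libraries and the excess of HuR 1 and HuR 3 was smaller. Mup13 had 484, 33.7 and 864 RPKM in the HuR libraries, against 43.5, 15.6 and 16.7 in the IgG libraries. Mup12 had 412, 26.5 and 908 RPKM in the HuR libraries, against 36.1, 13.5 and 28.0 in the IgG libraries.

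Mup4 and Mup5, known mainly from secretory glands, were named after their values were seen. Mup4 had 19.0, 0.28 and 35.5 RPKM in HuR 1 to 3, against 0.08, 0.09 and 0.42 in the IgG libraries and 0.42 in Input. Mup5 had 13.0, 0.16 and 29.1 RPKM in the HuR libraries, against 0.61, 0.08 and 0.34 in the IgG libraries and 0.41 in Input. Nearly all Mup4 reads of HuR 1 and HuR 3 lay in the last exon (98.3% and 99.6%). Whether reads of other copies were placed there was not tested.

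Other genes tied to Mup expression or function were not called at gene level. Of 18 genes of growth hormone signalling and Mup regulation, 12 were tested and 0 were called by limma (5 at unadjusted p under 0.05), with a median log2 fold change of 1.53 against 0.92 over all genes. Ghr, the growth hormone receptor, had 17.1, 8.66 and 9.15 RPKM in the HuR libraries, against 5.85, 1.35 and 1.55 in the IgG libraries and 1.19 in Input. Its HuR values were all above its IgG values, and HuR 2 was not low. Stat5b, the transcription factor downstream of it, had 4.25, 3.84 and 0.49 RPKM in the HuR libraries, against 0.75, 0.29 and 0.72 in the IgG libraries. Igf1, the growth factor that growth hormone induces in liver, had 18.6, 18.2 and 14.2 RPKM in the HuR libraries, against 4.39, 0.96 and 2.20 in the IgG libraries. Zhx2, a regulator of liver Mup levels, had 2.34, 2.06 and 15.3 RPKM in the HuR libraries, against 0.80, 0.30 and 2.71 in the IgG libraries. Cebpa and Hnf4a, hepatocyte transcription factors, had log2 fold changes of 1.70 (SE 1.02) and 2.02 (SE 0.87), with limma adjusted p of 0.244 and 0.123.

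Among other lipocalins, 6 of 12 were tested and 0 called at gene level (0 also at unadjusted p under 0.05). Their median log2 fold change was 1.15. In the last exon over the exons before it, limma called 2 of these 6 as higher in HuR, beside 5.24% of all genes. They were Rbp4 at 3.79 (limma adjusted p = 0.0496) and Apom at 4.68 (limma adjusted p = 0.0419). Rbp4, the plasma retinol carrier, had 93.1, 41.3 and 97.0 RPKM in the HuR libraries, against 46.3, 14.2 and 21.5 in the IgG libraries and 33.2 in Input. Ambp, which encodes the precursor of the plasma lipocalin alpha-1-microglobulin and of the protease inhibitor bikunin, had 7.57, 12.8 and 14.8 RPKM in the HuR libraries, against 25.6, 7.56 and 11.1 in the IgG libraries and 23.5 in Input. Its log2 fold change was -0.19 (SE 0.91, limma adjusted p = 0.884), and its groups overlapped. Orm1, an acute-phase plasma protein, had 14.5, 15.7 and 25.3 RPKM in the HuR libraries, against 13.7, 6.10 and 1.52 in the IgG libraries. Of 22 other abundant secreted liver proteins, all 22 were tested and 0 called at gene level (3 at unadjusted p under 0.05), with a median log2 fold change of 1.20. Albumin (Alb) had 430.2, 442 and 444 RPKM in the HuR libraries, 291, 135 and 345 in the IgG libraries and 412 in Input. Apoa2 and Apoa1, apolipoproteins of HDL, had log2 fold changes of 1.36 (SE 1.06) and 0.30 (SE 1.06). Over the whole gene the 3 HuR values of Alb lay close together. In its last exon alone it had 5341, 1313 and 6057 RPKM in the HuR libraries, against 75.4, 17.8 and 236 in the IgG libraries and 212 in Input. There HuR 2 was the lowest HuR library, as in the Mup genes, and still above the IgG libraries. In the last exon over the exons before it, 4 of those 22 were called by limma as higher in HuR, Alb among them with a log2 difference of 6.39 and an adjusted p of 0.0419.

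The male-biased list had 15 of 15 genes tested, 0 called (1 at unadjusted p under 0.05) and a median log2 fold change of 0.82. Cyp4a12a, a male-biased cytochrome P450, had 38.4, 0 and 33.4 RPKM in the HuR libraries, against 6.64, 2.26 and 7.22 in the IgG libraries. Elovl3, a fatty acid elongase, had 32.8, 0.13 and 12.7 RPKM in the HuR libraries, against 11.3, 1.08 and 3.88 in the IgG libraries. Serpina1e, a male-biased protease inhibitor, had 74.1, 14.0 and 115 RPKM in the HuR libraries, against 88.4, 30.4 and 7.74 in the IgG libraries. HuR 2 was the lowest HuR library in all 3. Hsd3b5, a steroid dehydrogenase, had 1.36, 0 and 0.86 RPKM in the HuR libraries, against 1.59, 0.58 and 0 in the IgG libraries. Of the female-biased list 5 of 17 were tested and 0 called (0 also at unadjusted p under 0.05), with a median of 1.23. Cyp2b9 had 0, 18.2 and 0.38 RPKM in the HuR libraries, against 1.28, 0.62 and 2.27 in the IgG libraries.

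Among 1132 genes without a Mup name and with a mean of 5 RPKM or more, the pattern over the 6 pull-downs most like the members' mean was that of Gm21320 (Pearson r = 0.994). RefSeq on GRCm38.p6 lists Gm21320 as a synonym of Mup22, a further Mup gene. The next were Srek1 (r = 0.989), Cox6a1 (0.980), Tdo2 (0.975) and Cyp2f2 (0.971). These values are a description over 6 libraries, and within each library all genes share its depth and scaling. Srek1 had 13.3, 0.59 and 18.7 RPKM in HuR 1 to 3, against 0.69, 0.12 and 0.16 in IgG 1 to 3 and 0.09 in Input.

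In the authors' deposited table, where each exon has a p-value and a q-value, 0 of 110 member exons had a q under 0.05. The authors' deposited table has 0 such exons among 136082, and its lowest q for a member exon was 0.541. Its lowest p for a last exon of the members was 0.0783, in Mup3.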

How the data were processed

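RNA of HuR, IgG and Input samples was sequenced after native RNA immunoprecipitation. Per the submitters' processing notes, Bowtie2, featureCounts and mm10 were used; versions are not given. The authors deposited 1 exon table holding RPKM (reads per kilobase of exon, scaled to the library's reads) per pull-down library, a mean RPKM for Input, log2 ratios to Input, and a p-value and q-value per exon by a test not given. In the deposited table numbers had lost their decimal mark. Each was restored so that RPKM and the authors' log2 ratios fit each other: 138761 of 138826 distinct lines fit in all 6 libraries and 65 in 5. RPKM was multiplied by length, summed over a gene's listed exons and divided by the merged exon length. In 99.4% to 99.8% of exons overlapping no other, reads came out whole within 0.05. Reads appear to be split between overlapping entries, since sums over a gene's entries were whole in 84.9% to 89.0% of genes; the alternative with each distinct exon once leaves out the shares of repeated lines. Tests used limma 3.58.1 (trend, robust) in R 4.3.3 on log2(RPKM + 0.5), which understates changes of low genes; it was tested on simulated data. Members, lists and tests were chosen with earlier results of these data known. Named genes are all members, the 4 highest other Mup names, up to 3 of each list by mean RPKM and a few listed by name. The split into last exon and earlier exons within each gene was chosen after seeing the data. Alternatives covered scaling, pseudocount, filters, moderation, sample weights, replicate number and leaving out libraries. Genes under the gene filter had no gene-level test except in the fit with no filter, though values of some are given. The Input libraries were not analysed singly.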

Additional observations from a re-analysis of the deposited data

How the results depend on the processing

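All 10 gene-level fold changes of HuR over IgG kept their direction under every scaling, pseudocount, filter, weighting and left-out library run. Their median of 2.90 became 1.29 with TMM-like scaling and 1.04 in the exons before the last only. It lay between 1.80 and 4.54 as single libraries were left out, the highest without HuR 2. Centring the libraries at their medians moved the median of all genes from 0.92 to -0.18 and the members' to 1.80. Centring shifts every gene by the same amount, so the gap of 1.98 between these medians could not change. Members called at gene level (0) became 10 with sample quality weights and 1 with the last exon only, and 0 to 6 with single libraries left out.

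Over all genes, 44 were called (37 higher, 7 lower). The count became 19 with centring (1 higher, 18 lower), 392 with TMM-like scaling (50 higher, 342 lower), 9 with quantile normalization (5 and 4) and 6 with scaling to the protein-coding sum. It was 4 with a pseudocount of 1, 166 with a filter of RPKM 1 and 2380 with sample weights. It was 0 with no filter, without trend and robust moderation, without HuR 3 and IgG 1 together, and with each distinct exon once; unadjusted p was under 0.05 for 1193, 1437, 2097 and 1513 genes higher in HuR and 101, 192, 81 and 161 lower. It was 367 for last exons, 9 for the exons before them and 0 to 741 with single libraries left out, the highest without IgG 1.

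With replicate number as a block, 0 genes were called in all (1665 higher and 238 lower at unadjusted p under 0.05) and 0 of 10 members, while in the last exon 9 of 10 members were called (505 of 5454 genes higher in HuR), and 3 of 10 for the last exon over the exons before it (217 of 3739 genes higher). Same-numbered deviations correlated at 0.138, 0.117 and 0.0860, not all above 0.1, so the numbers were not taken to pair the libraries, although each HuR library correlated best with its own. Exchanging HuR 2 and HuR 3 in the block, run on whole genes only, also gave 0 calls.

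Last-exon calls of members (1) became 0 with a pseudocount of 0.1 or 1 or with centring, 4 with a filter of RPKM 1 (beside 15.0% of all genes), 10 with sample weights, and 0 to 9 with single libraries left out. Their median of 3.71 became 2.04 with centring, 5.09 with sample weights, and 2.58 to 5.48 with single libraries left out. For the last exon over the exons before it, members called (0) became 3 with a filter of RPKM 1 (beside 16.5% of all genes), 1 with both parts at RPKM 0.5 or more in 3 libraries (beside 12.4%), and 0 to 6 with single libraries left out. Its median of 2.73 became 1.28 with centring, where Mup20 was at -0.39.

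In the exons before the last, centring gave -0.40 for Mup1, -0.66 for Mup17 and -0.41 for Mup18. With single libraries left out they lay between -0.26 and 1.23, -0.44 and 0.61, and -0.30 and 0.90, and Mup17 without HuR 3, IgG 2 or IgG 3 was at -0.08, -0.10 and -0.22. Mup1 without HuR 3 was at -0.13, and Mup18 without HuR 1 at -0.15. The median of all member exons became -0.57 with centring. HuR over Input (median 2.11) was -0.45 in the exons before the last, and 0.94 to 3.71 with single libraries left out. IgG over Input (-0.91) lay between -1.42 and -0.67 as libraries were left out. The cause of these moves was not tested. IgG 3, with the fewest exons above 0, limits ratios within genes.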
